A study of Homo sapiens with 6 samples.

Results

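The integrated stress response and the unfolded protein response were followed through 41 genes, listed by name as genes of the ATF4 pathway, of serine synthesis and of endoplasmic reticulum (ER) stress, and required to average at least 1 across the 6 libraries. All 41 had a row in the table of 27394 genes and all 41 met that level. They were divided by textbook role into 4 kinases that start the response, 23 genes of the ATF4 arm and 14 genes of the XBP1/ATF6 arm.

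PANC-1, an established human pancreatic cancer cell line, was infected with a control shRNA (shControl) or with an shRNA against ZDHHC20 (shZDHHC20), a membrane enzyme that attaches palmitate to cysteines of other proteins. RNA-seq was made from 3 replicates of each group, from total RNA of whole cultures with a strand-directional library kit, and the sample labels give the same medium and infection treatment for both groups. The labels do not say how many shRNA sequences were used or whether the replicates came from separate infections, so the p-values measure the spread between these samples, which may be technical. Whole cultures also cannot tell fewer cells that express a gene from less RNA of that gene per cell.

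When unfolded proteins fill the ER, amino acids run short, heme is lacking or double-stranded RNA appears, kinases phosphorylate the initiation factor eIF2alpha, most translation slows, and translation of the transcription factor ATF4 rises. ATF4 with its partners then induces genes of amino acid uptake and synthesis, and prolonged activity induces growth-arrest and death genes. In the ER branch, the sensors IRE1 (ERN1) and ATF6 produce active XBP1 and ATF6 factors, which induce chaperones and the machinery that returns misfolded proteins to the cytosol. In the normal pancreas the acinar cells, which secrete large amounts of protein, depend on the ER branch.

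The promoters were searched for response elements known for these pathways. The members are known genes of the same pathways, so the counts of elements describe the lists and do not test them. RefSeq windows (build GRCh38.p14) of 300 bases, from 250 before to 50 after a transcription start, were found for 37 of the 41 genes, 14 of them in the XBP1/ATF6 arm and 20 in the ATF4 arm, and were searched on both strands. The ER stress response element, CCAAT and CCACG with 9 bases of any kind between them, was found in 5 of the 37 genes and in 0.0916% of the 27305 genes with windows. Its shorter form, ERSE-II, ATTGG and CCACG with 1 base of any kind between them, was found in 3 of the 37 genes and in 0.0696% of all genes. Either form was present in 8 of 14 genes of the XBP1/ATF6 arm and in 0 of 20 of the ATF4 arm. The C/EBP-ATF response element to which ATF4 binds with a C/EBP partner, searched as TGATGNAA, was found in 5 of the 37 genes, 4 of them in the ATF4 arm, and in 4.46% of all genes. A match is a description of letters and not evidence of binding, and a window without one says nothing about more distant sites.

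Stretches of the promoters with a long ER stress response element are shown from the gene's strand, 5′ to 3′. Among the members with windows this element was found only in the XBP1/ATF6 arm, in 5 of 14 genes. Capitals mark the element, which lies on the opposite strand in CALR.
HSPA5, chr9:125241381-125241419 (minus strand): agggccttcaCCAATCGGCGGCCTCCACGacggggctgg
XBP1, chr22:28800593-28800631 (minus strand): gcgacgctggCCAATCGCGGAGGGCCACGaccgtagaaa
CALR, chr19:12938374-12938412 (plus strand): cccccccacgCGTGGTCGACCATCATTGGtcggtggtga
CANX, chr5:179698768-179698806 (plus strand): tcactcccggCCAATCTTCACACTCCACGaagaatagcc
PDIA6, chr2:10812843-10812881 (minus strand): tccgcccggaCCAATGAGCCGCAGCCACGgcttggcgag

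ERSE-II is shown in capitals for the genes that hold it, HYOU1 because it was the only gene with the element past the threshold in this arm, and HERPUD1 because the same stretch also holds a C/EBP-ATF response element, the first capitals. The HYOU1 promoter held ERSE-II at 2 positions. ERSE-II lies on the opposite strand in HYOU1 and SDF2L1, as does the C/EBP-ATF response element in HERPUD1.
HYOU1, chr11:119057264-119057400 (minus strand): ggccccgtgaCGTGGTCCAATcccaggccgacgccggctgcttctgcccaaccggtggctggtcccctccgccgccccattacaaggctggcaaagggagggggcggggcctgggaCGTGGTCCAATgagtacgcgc
SDF2L1, chr22:21642104-21642134 (plus strand): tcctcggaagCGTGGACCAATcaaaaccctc
HERPUD1, chr16:56931956-56932045 (plus strand): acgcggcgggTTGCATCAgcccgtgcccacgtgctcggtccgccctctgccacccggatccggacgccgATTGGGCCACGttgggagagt

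The C/EBP-ATF response elements of the ATF4 arm are shown in capitals for the 4 genes that held 1 in these windows. In CHAC1 the element lies on the opposite strand. The stretches of CHAC1 and ASNS lie before the RefSeq start used here and within a first exon of a longer GENCODE 29 transcript.
CHAC1, chr15:40953252-40953279 (plus strand): tcccctgccgTTGCATCActcctgccag
CEBPG, chr19:33374061-33374088 (plus strand): gcgcggcgtcTGATGCAAcctgccggca
ASNS, chr7:97872459-97872486 (minus strand): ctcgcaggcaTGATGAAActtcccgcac
ATF3, chr1:212565206-212565233 (plus strand): aaggtcaggaTGATGGAAggctgtcata

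The values are gene counts divided by 1 factor per library and are called normalized counts here, and they summed to between 17083277 and 18007664 in the 6 libraries. Log2 fold changes are shZDHHC20 minus shControl on the log2(normalized count + 0.1) scale, tested with limma over the 22189 genes that averaged at least 1, and the threshold was an adjusted p under 0.05. ZDHHC20 itself was at 2001, 2033 and 1940 normalized counts in shControl and at 872, 779 and 893 in shZDHHC20, so the groups did not overlap and the silenced cells held 42.6% of the control level (log2 fold change -1.23, SE 0.0649, limma adjusted p = 4.36e-07). Replicate 2 of shZDHHC20 stood apart from the other libraries. Over 4136 genes with a mean of at least 1000, its log2 differences from the other shZDHHC20 replicates had an SD of 0.178 and 0.198, against 0.0674 to 0.0722 for the other pairs within a group, and 4.01% of its normalized counts were mitochondrial against 5.28% to 5.52%. Results that turn on this library are given with and without it. Leaving it out takes its spread from the fit, so adjusted p without it are not comparable with those from all libraries. Of the ductal markers, KRT8, KRT18 and KRT19 had group means between 5917 and 56187 normalized counts and KRT7 means of 86.5 and 85.3. Of the acinar, endocrine, immune, endothelial and fibroblast markers with values, all lay at or under 8.66 in every library except CD14 (17 to 41.3) and COL1A1, which was at 3953, 3958 and 3882 in shControl and at 3376, 3113 and 3291 in shZDHHC20 (log2 fold change -0.27, limma adjusted p = 0.00288). PRSS1, LUM, SST, CD68 and PTPRC were at 0 in at least 1 shControl library. The part of other cell types in the differences below was not tested.

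Silencing ZDHHC20 moved the members by small amounts in both directions, with more genes lower than higher. In total 14 of 41 members passed the threshold (34.1%), 4 higher and 10 lower, beside 11.5% of all genes tested (4.61% higher and 6.84% lower). All 41 members had means of at least 100 normalized counts, and of the 10908 genes with such means 21.7% passed, 8.41% higher and 13.3% lower. The members were chosen with earlier results of these data known, so their share describes the list and does not test it. The groups did not overlap for 20 members (48.8%), beside 28.6% of all genes and 42.6% of those averaging at least 100. Log2 fold changes of the members ran from -0.53 to 0.37 with a median of -0.07. The median was 0.01 over all genes and -0.01 over those averaging at least 100. Of the members 0 of 41 reached a 1.5-fold change with an unadjusted limma p under 0.01, which 2.45% of all genes did. Without a mean-variance trend in the variance model 351 genes and 1 member, GDF15, passed, and the adjusted p of the other 13 then ran from 0.0607 to 0.256.

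**Figure D1:**
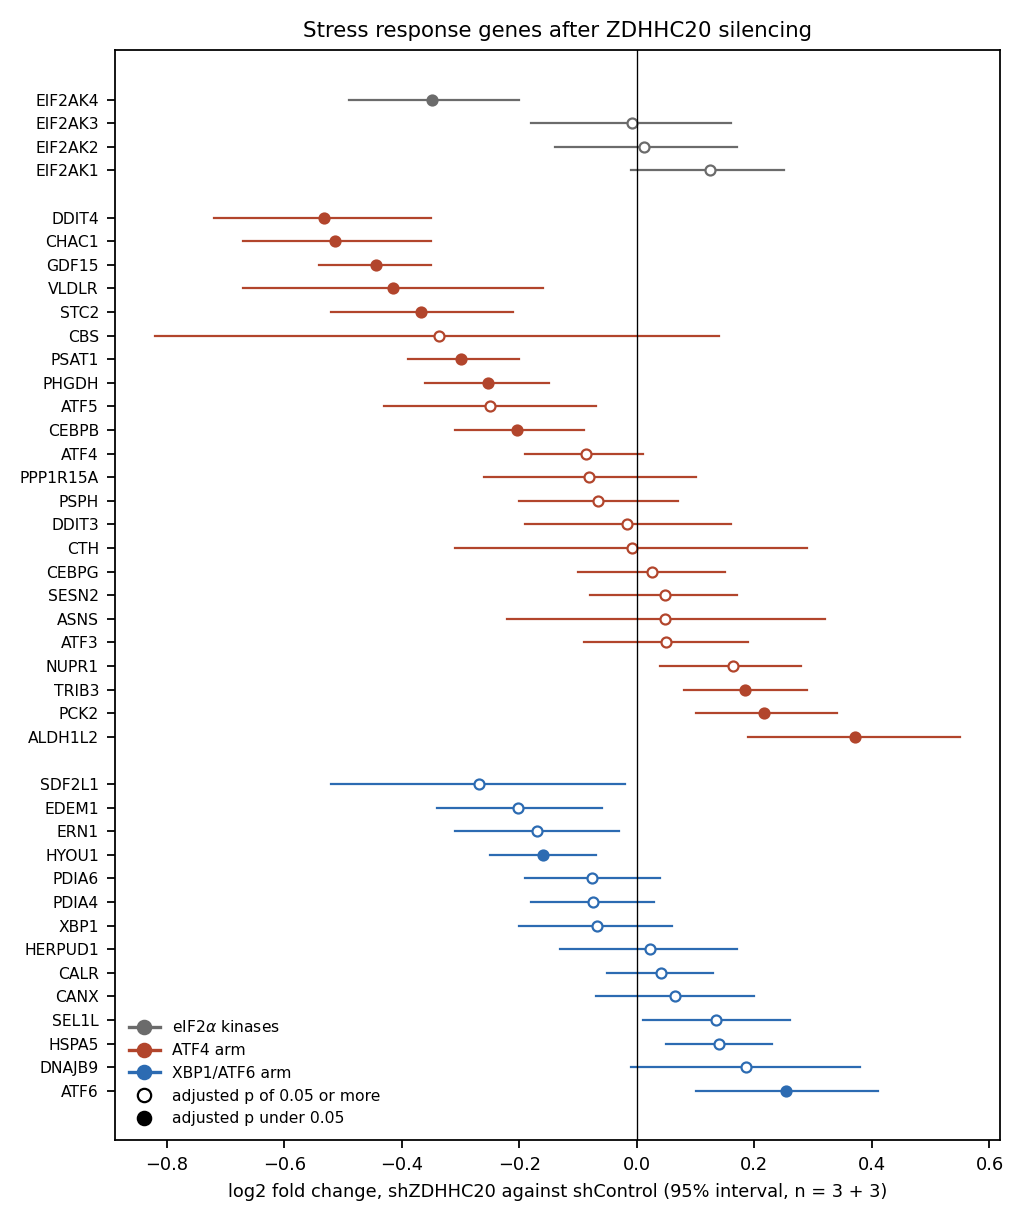
Log2 fold change of each of the 41 genes, shZDHHC20 against shControl, with 95% intervals (3 libraries a group); grey, red and blue stand for the eIF2alpha kinases, the ATF4 arm and the XBP1/ATF6 arm, and filled points for an adjusted p under 0.05. The ATF4 arm runs from DDIT4 at -0.53 to ALDH1L2 at 0.37, and 12 of the 14 genes of the XBP1/ATF6 arm are open points.

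Most of the calls lay in the ATF4 arm. There 11 of 23 genes passed (47.8%), 3 higher and 8 lower, with a median log2 fold change of -0.08. The groups did not overlap for 13 of the 23 (56.5%). In the XBP1/ATF6 arm 2 of 14 passed (14.3%), 1 higher and 1 lower, with a median of -0.02. The groups did not overlap for 6 of the 14 (42.9%). Among the kinases 1 of 4 passed (25%) and was lower. Of genes averaging at least 100, 21.7% passed and 42.6% had groups that did not overlap. The counts by role below are read beside the same shares. The difference between the arms was not tested, since members chosen by function are not replicates.

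Library by library, the median of the ATF4 arm relative to the shControl mean was 0.03, -0.01 and 0.01 in the shControl replicates and -0.16, -0.05 and -0.10 in shZDHHC20 replicates 1, 2 and 3. All 3 silenced libraries thus lay below all 3 controls, replicate 2 by the smallest margin. The median of the XBP1/ATF6 arm was -0.01, 0.01 and 0.00 in shControl and 0.00, -0.08 and 0.01 in shZDHHC20, where only replicate 2 lay outside the control range by more than 0.01. The median of the kinases was 0.03, -0.12 and 0.09 in the silenced libraries, which lay on both sides of the controls.

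**Figure D2:**
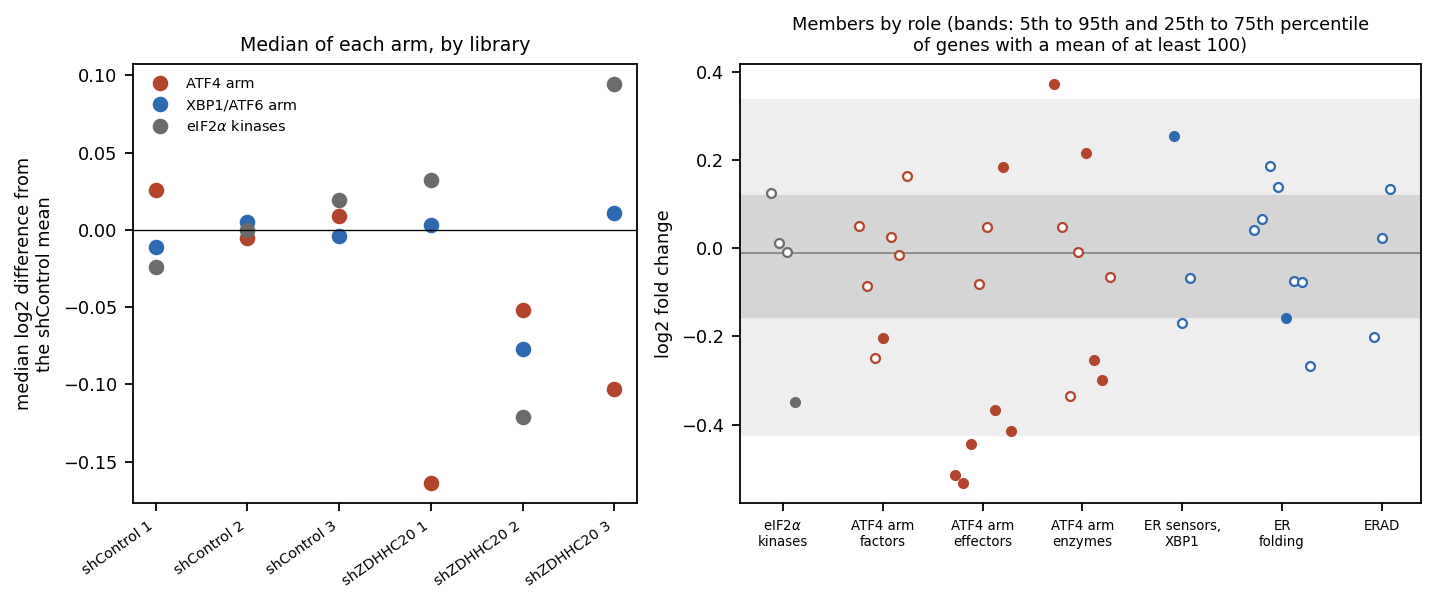
Left, median log2 difference from the shControl mean of the genes of each arm in each of the 6 libraries; right, log2 fold change of each member by role, filled where the adjusted p was under 0.05, with bands for the 5th to 95th and the 25th to 75th percentile of the 10908 genes averaging at least 100 and a line at their median. The median of the ATF4 arm is below 0 in all 3 silenced libraries, and DDIT4, CHAC1 and GDF15 lie below the 5th percentile of -0.423.

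The 4 eIF2alpha kinases each sense a different stress, and 1 of them, the amino acid sensor, passed the threshold and was lower. EIF2AK4, which encodes GCN2, the kinase activated by uncharged tRNA, was at 1156, 1196 and 1216 normalized counts in shControl and at 954, 861 and 992 in shZDHHC20. Every silenced library was below every control, at 78.7% of the control mean (log2 fold change -0.35, SE 0.0674, limma adjusted p = 0.00457), and the call held without any single library. EIF2AK1, the heme-regulated kinase HRI, was at 5426, 5387 and 5440 in shControl and at 6040, 5324 and 6394 in shZDHHC20. Replicate 2 was below the controls and the other silenced libraries above them (log2 fold change 0.12, 95% interval -0.01 to 0.25, limma adjusted p = 0.234), and without replicate 2 the change was 0.20 with an adjusted p of 0.000312. EIF2AK2, the double-stranded RNA sensor PKR, behaved likewise: its log2 fold change was 0.01 (interval -0.14 to 0.17) with all libraries and 0.11 without replicate 2 (limma adjusted p = 0.0386). EIF2AK3, the ER sensor PERK, was at 504, 487 and 530 against 488, 487 and 538, with a log2 fold change of -0.01 and an interval of -0.18 to 0.16.

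Of the 7 transcription factors of the ATF4 arm, 1 passed the threshold. CEBPB, a C/EBP factor that forms dimers with ATF4, fell from 2450, 2325 and 2391 normalized counts in shControl to 2055, 2128 and 2040 in shZDHHC20. The groups did not overlap (log2 fold change -0.20, SE 0.0511, limma adjusted p = 0.0204), but the call was lost on leaving out any library other than shZDHHC20 replicate 2, with adjusted p of 0.0618 to 0.124. ATF4, the central factor of the response, whose output is set largely by translation, was at 6791, 6925 and 6923 against 6248, 6793 and 6404. Replicate 2 lay 2 counts above the lowest control and the other silenced libraries below all controls (log2 fold change -0.09, interval -0.19 to 0.01, limma adjusted p = 0.277), and without replicate 2 the change was -0.12 with an adjusted p of 0.00482.

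ATF5, a relative of ATF4 that is also controlled by translation, was at 1822, 1881 and 1874 against 1560, 1813 and 1351. The groups did not overlap, replicate 2 again lay nearest to the controls, and the log2 fold change of -0.25 (interval -0.43 to -0.07) had a limma adjusted p of 0.0814 with all libraries and was -0.36 with 0.000342 without replicate 2. NUPR1, a small stress-induced chromatin protein first found in the injured pancreas, was at 3110, 3044 and 3013 against 3292, 3708 and 3285. All silenced libraries were above the controls, here with replicate 2 the farthest from them (log2 fold change 0.16, interval 0.04 to 0.28, limma adjusted p = 0.082; without replicate 2, 0.11 and 0.0381). ATF3, a repressor induced by ATF4, DDIT3, the death-associated factor CHOP, and CEBPG, a dimer partner of ATF4, had overlapping groups and log2 fold changes of 0.05, -0.02 and 0.03. Their intervals were -0.09 to 0.19, -0.19 to 0.16 and -0.10 to 0.15.

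The 8 feedback genes and stress effectors held the lowest fold changes of the list: 5 fell, 1 rose and 2 did not pass, with a median log2 fold change of -0.39. DDIT4, which encodes REDD1, an inhibitor of the growth kinase complex mTORC1, was at 3274, 3016 and 3269 normalized counts in shControl and at 2086, 2600 and 1963 in shZDHHC20. The silenced libraries were all lower, at 69.6% of the control mean, with replicate 2 nearest to the controls (log2 fold change -0.53, SE 0.0854, limma adjusted p = 0.00126; without replicate 2, -0.65). CHAC1, an enzyme that degrades glutathione and a late target of ATF4, was at 1364, 1320 and 1308 against 930, 1036 and 842. Again no silenced library reached a control, and the mean was 70.3% of the control (log2 fold change -0.51, SE 0.0745, limma adjusted p = 0.000639). CHAC1 is the only called gene of the ATF4 arm with a C/EBP-ATF response element in the window searched.

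GDF15, a secreted stress cytokine of the TGF-beta family, had the smallest adjusted p of the members. It was at 8385, 7909 and 7875 normalized counts in shControl and at 5862, 6038 and 5861 in shZDHHC20. The 3 silenced libraries lay close together and well below the controls, at 73.5% of their mean (log2 fold change -0.44, SE 0.0447, limma adjusted p = 3.65e-05), and the adjusted p stayed at or under 0.0481 under all 15 alternative settings. Per kilobase of exon GDF15 stood second among the members in shControl cells, with 3860 normalized counts per kilobase, below HSPA5 at 5270 and above CANX at 3200. STC2, a secreted glycoprotein induced by ATF4, was at 10148, 10304 and 10457 against 7528, 9288 and 7283. The groups did not overlap, and replicate 2 lay nearest to the controls (log2 fold change -0.37, SE 0.0728, limma adjusted p = 0.00531; without shZDHHC20 replicate 1, -0.30 and 0.0517; without replicate 2, -0.48).

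VLDLR, a lipoprotein receptor and the member with the lowest level per kilobase (18 in shControl), was at 164, 171 and 171 normalized counts against 130, 129 and 120. All silenced libraries were lower (log2 fold change -0.41, SE 0.117, limma adjusted p = 0.0362), and the call was lost on leaving out any library other than shZDHHC20 replicate 2, with adjusted p of 0.0818 to 0.13. TRIB3, a pseudokinase that binds and restrains ATF4, moved the other way, from 3874, 3603 and 3645 to 4174, 4313 and 4148. Its groups did not overlap (log2 fold change 0.18, SE 0.0485, limma adjusted p = 0.0258), and the call was lost without any shControl replicate or without shZDHHC20 replicate 1 (adjusted p of 0.0518 to 0.141). PPP1R15A, the GADD34 subunit that directs phosphatase to eIF2alpha, and SESN2, a leucine sensor, had overlapping groups, with log2 fold changes of -0.08 (interval -0.26 to 0.10) and 0.05 (interval -0.08 to 0.17).

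**Figure D3:**
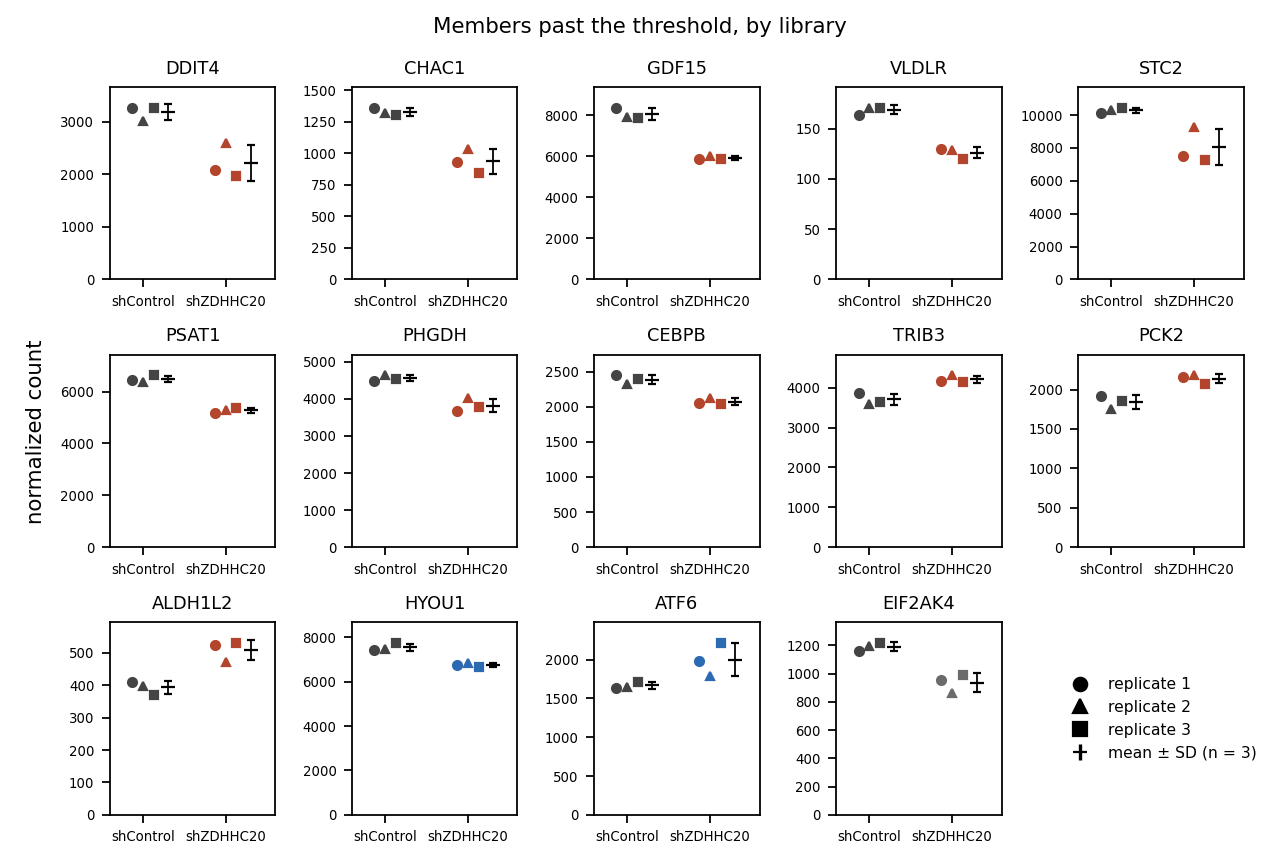
Normalized counts of the 14 genes past the threshold in each library, with circles, triangles and squares for replicates 1, 2 and 3 and the mean ± SD of 3 libraries beside them; every axis starts at 0. In each panel the 3 silenced libraries lie on 1 side of the 3 controls, and in DDIT4, CHAC1 and STC2 the silenced replicate 2 is the nearest to the controls.

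Among the 8 enzymes of amino acid and one-carbon metabolism, 2 fell, both in serine synthesis, and 2 rose, with a median log2 fold change of -0.04. PHGDH, which oxidizes a glycolytic intermediate at the entry to the pathway, was at 4479, 4638 and 4538 normalized counts in shControl and at 3661, 4022 and 3784 in shZDHHC20 (log2 fold change -0.25, SE 0.0496, limma adjusted p = 0.00495). PSAT1, the transaminase of the next step, was at 6438, 6381 and 6626 against 5172, 5285 and 5352 (log2 fold change -0.30, SE 0.0435, limma adjusted p = 0.000639). For these genes no silenced library reached a control and no left-out library ended the call. PSPH, the phosphatase of the last step, had overlapping groups, at 1232, 1127 and 1148 against 1142, 1094 and 1112 (log2 fold change -0.07, interval -0.20 to 0.07).

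Both enzymes that rose act in mitochondria. ALDH1L2, a folate enzyme that releases the formyl group as carbon dioxide, was at 410, 398 and 370 normalized counts against 524, 472 and 530. The groups did not overlap and the gene had the largest rise of the members (log2 fold change 0.37, SE 0.083, limma adjusted p = 0.0105); the call was lost without shControl replicate 3 or shZDHHC20 replicate 1 (adjusted p of 0.063 and 0.0717). PCK2, the mitochondrial form of phosphoenolpyruvate carboxykinase, was at 1924, 1751 and 1855 against 2166, 2182 and 2071. The silenced libraries were all above the controls (log2 fold change 0.22, SE 0.0557, limma adjusted p = 0.0237), and the call was lost without any shControl replicate or without shZDHHC20 replicate 1 (adjusted p of 0.0533 to 0.139).

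ASNS, the asparagine synthetase often used as a readout of ATF4, was at 179, 223 and 185 against 182, 227 and 197, with a log2 fold change of 0.05 and an interval of -0.22 to 0.32. At 43.9 normalized counts per kilobase it was second lowest of the members, and 1985 of its 4455 exon bases are shared with a transcript of the same strand, so its counts may be split. CTH and CBS, the enzymes that make cysteine from homocysteine, had overlapping groups. CBS was at 448, 1013 and 940 in shControl and at 672, 575 and 549 in shZDHHC20, and shControl replicate 1, below all silenced libraries, decided its value: the log2 fold change was -0.34 (interval -0.82 to 0.14, limma adjusted p = 0.402) with it and -0.71 (adjusted p of 0.00184) without it. GENCODE 29 also annotates CBSL, a near-identical copy, at chr21:6444869-6468040 (GRCh38), far from CBS at chr21:43053191-43076943. The labels give hg19 as the build of these counts, and whether that build holds the copy was not tested. The bearing of CBSL on the counts of CBS is therefore unknown. The log2 fold change of CTH was -0.01 with an interval of -0.31 to 0.29.

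In the ER branch the sensor ATF6 rose. It was at 1640, 1650 and 1718 normalized counts in shControl and at 1987, 1793 and 2214 in shZDHHC20, with no overlap and with replicate 2 nearest to the controls (log2 fold change 0.25, SE 0.0709, limma adjusted p = 0.0343; without replicate 2, 0.33). The call was lost on leaving out any other library, with adjusted p of 0.0959 to 0.142. ERN1, which encodes the IRE1 nuclease that splices XBP1 mRNA, was at 913, 934 and 905 against 863, 776 and 812. These groups did not overlap either, and the log2 fold change of -0.17 (interval -0.31 to -0.03) did not pass (limma adjusted p = 0.128). XBP1 was at 1546, 1529 and 1525 against 1536, 1371 and 1485, with a log2 fold change of -0.07 and an interval of -0.20 to 0.06. The gene values do not separate its spliced from its unspliced form.

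Of the 8 ER chaperones and folding enzymes, HYOU1 passed. HYOU1, an exchange factor for the chaperone BiP, was at 7446, 7476 and 7749 normalized counts in shControl and at 6778, 6851 and 6681 in shZDHHC20. All silenced libraries were lower, by a small amount (log2 fold change -0.16, SE 0.0425, limma adjusted p = 0.0282), and the call was lost on leaving out any library other than shZDHHC20 replicate 2 (adjusted p of 0.0765 to 0.171). HSPA5, which encodes BiP and had the highest level of the members per kilobase, went the other way, from 20859, 20559 and 20413 to 22537, 21869 and 23717. Its groups did not overlap and its log2 fold change of 0.14 (interval 0.05 to 0.23) missed the threshold at a limma adjusted p of 0.05002; it passed under 5 of the 15 alternative settings, with 0.000121 without shZDHHC20 replicate 2. HYOU1 and HSPA5 thus lay on opposite sides of 0. The promoter window of HYOU1 holds ERSE-II and that of HSPA5 the long ER stress response element.

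CANX, a lectin chaperone of the ER membrane, was at 19826, 20188 and 19907 against 21736, 18469 and 22735. Here replicate 2 was below the controls and the other silenced libraries above them (log2 fold change 0.07, interval -0.07 to 0.20; without replicate 2, 0.15 and a limma adjusted p of 0.000158). SDF2L1, a cofactor of the BiP cycle, was at 421, 426 and 402 against 297, 424 and 328. Replicate 2 lay among the controls and the others below (log2 fold change -0.27, interval -0.52 to -0.02, limma adjusted p = 0.176; without replicate 2, -0.42 and 0.00221). The soluble lectin chaperone CALR and the disulfide isomerases PDIA4 and PDIA6 had overlapping groups and log2 fold changes of 0.04, -0.08 and -0.08. DNAJB9, a BiP cochaperone that restrains IRE1, was at 288, 314 and 275 against 316, 349 and 332, without overlap, and its log2 fold change of 0.19 (interval -0.01 to 0.38) did not pass.

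None of the 3 genes of ER-associated degradation passed with limma, 2 of 3 had an unadjusted p under 0.05, and EDEM1 passed with robust moderation (adjusted p = 0.046). SEL1L, the adaptor of the ubiquitin ligase that removes misfolded proteins, was at 2509, 2547 and 2604 normalized counts against 2944, 2607 and 2871. All silenced libraries were above the controls, replicate 2 by 3 counts (log2 fold change 0.13, interval 0.01 to 0.26, limma adjusted p = 0.158; without replicate 2, 0.19 and 0.0019). EDEM1, a lectin that trims and delivers misfolded glycoproteins, was at 2055, 1823 and 2088 against 1842, 1645 and 1697. Its lowest control lay below its highest silenced library (log2 fold change -0.20, interval -0.34 to -0.06, limma adjusted p = 0.0714). HERPUD1, a scaffold of the same ligase and the member with elements of both arms in its promoter, was at 810, 866 and 898 against 915, 824 and 876, with a log2 fold change of 0.02 and an interval of -0.13 to 0.17.

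The 8 genes whose promoters held ERSE or ERSE-II (XBP1, HSPA5, CALR, CANX, PDIA6, HYOU1, SDF2L1 and HERPUD1) thus had log2 fold changes from -0.27 to 0.14, and 1 of 8 passed. Of the 4 ATF4 arm genes with a C/EBP-ATF response element, CHAC1 fell by 0.51 on the log2 scale, and CEBPG, ASNS and ATF3 lay between 0.03 and 0.05 and did not pass.

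Replicate 2 of shZDHHC20 lay nearest to the shControl mean in 9 of the 14 called members, and in 7 of the 11 of the ATF4 arm. Without it 4454 genes (20% of those tested) and 23 members passed. The library was singled out by its distance from its group, so a rise in calls on leaving it out is not a separate result. All members averaged at least 100, and the share of such genes that passed without replicate 2 is not given here. With all libraries that share was 21.7%, beside 11.5% of all genes tested, and neither is a background for the fit without replicate 2. These 23 included all 14 members called with all libraries, and the 9 added were EIF2AK1, EIF2AK2, ATF4, ATF5, NUPR1, HSPA5, CANX, SDF2L1 and SEL1L. With it left out, 4 genes of the XBP1/ATF6 arm were higher (ATF6, HSPA5, CANX and SEL1L) and 2 lower (HYOU1 and SDF2L1). The library's part in the results was measured only in this way, and its origin was not tested.

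**Figure D4:**
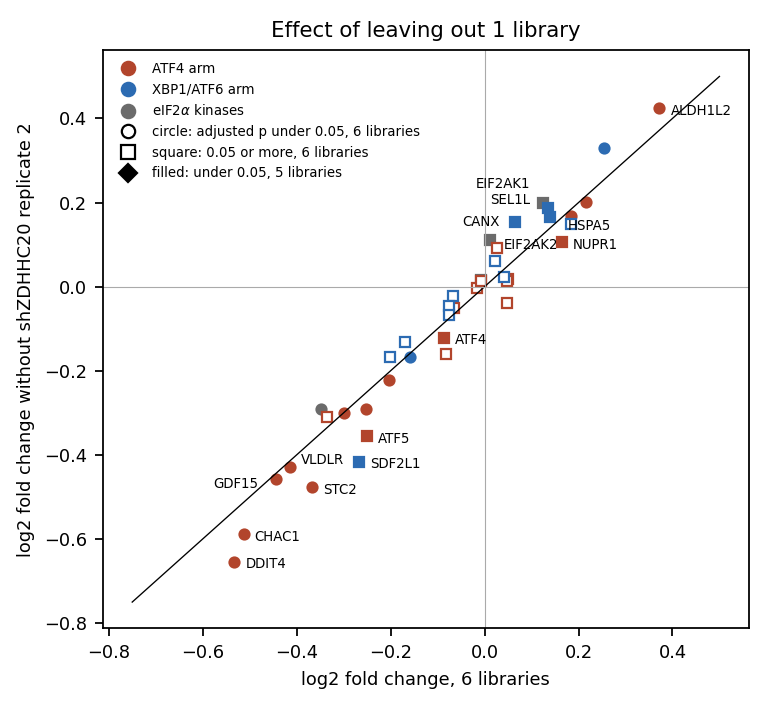
Log2 fold change of each member with all 6 libraries (horizontal axis) and without shZDHHC20 replicate 2 (vertical axis), coloured by arm; circles passed the threshold with 6 libraries, squares did not, and filled symbols passed with 5. DDIT4, CHAC1, STC2 and ATF5 lie below the line of equal values, farther from 0 without that library, and the 9 filled squares are the members that passed only with 5 libraries.

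Other genes of the same pathways were taken from 8 lists with 91 genes in total, all of which had a mean of at least 1. Of these 19 passed (20.9%), 4 higher and 15 lower, beside 11.5% of all genes and 21.7% of genes averaging at least 100 (8.41% higher and 13.3% lower), so their share was near that of genes of comparable level. The list counts below are small and are read beside the same shares. Without the mean-variance trend SLC7A5 kept its call and the other named genes of these lists lost theirs. Amino acid transporters known as targets of ATF4 gave 4 lower of 9 genes (44.4%). SLC7A5, the light chain of the large neutral amino acid exchanger, was at 15399, 14703 and 15617 normalized counts in shControl and at 10985, 11352 and 10445 in shZDHHC20 (log2 fold change -0.48, SE 0.0456, limma adjusted p = 2.42e-05). Its heavy chain SLC3A2 was at 6046, 5741 and 6081 against 4254, 4957 and 4308 (log2 fold change -0.41, SE 0.0594, limma adjusted p = 0.000662). Neither gene had a silenced library within the control range, so both chains of this exchanger were lower. The other two transporters that fell, named after their values were seen, were the glutamine carriers SLC1A5 (log2 fold change -0.26, limma adjusted p = 0.00582) and SLC38A2 (-0.22, adjusted p of 0.00956). The call of SLC1A5 was lost without shControl replicate 1 (adjusted p of 0.0521), and that of SLC38A2 without any 1 shControl replicate (0.0588 to 0.0654).

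Of 14 metabolic enzymes and tRNA synthetases of the ATF4 program 2 fell (14.3%), SHMT2, which makes glycine from serine in mitochondria (log2 fold change -0.34, limma adjusted p = 0.00678), and YARS1, the tyrosine synthetase (-0.20, adjusted p of 0.0109). The call of SHMT2 was lost without shControl replicate 2 or shZDHHC20 replicate 1 (adjusted p of 0.0565 to 0.0568), and that of YARS1 without any 1 shControl replicate or shZDHHC20 replicate 1 (0.0541 to 0.0815). Among 5 further ATF4 targets 1 fell (20%): EIF4EBP1, a repressor of cap-dependent translation, fell from 904, 891 and 865 normalized counts to 677, 652 and 542 (log2 fold change -0.51, limma adjusted p = 0.00147). The 13 subunits and regulators of eIF2 and eIF2B gave 0 calls with limma, 3 of them had an unadjusted p under 0.05, and their log2 fold changes ran from -0.21 to 0.22.

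The additional ER genes also moved in both directions. Of 15 folding genes 2 rose and 1 fell (20% called): ERO1A, the oxidase that recharges disulfide isomerases (log2 fold change 0.42, limma adjusted p = 0.000384), P4HB, the main disulfide isomerase (0.28, adjusted p of 0.000764), and TXNDC5, another isomerase, which was lower (-0.65, adjusted p of 0.00113) and was named after its value was seen. Of 12 genes of ER-associated degradation 2 fell (16.7%), DERL1, a channel component (-0.34, adjusted p of 0.00145), and ERLEC1, a lectin (-0.33, adjusted p of 0.0127), whose call was lost without any 1 shControl replicate (0.0529 to 0.0784). Of 16 genes of protein entry into the ER 2 rose and 3 fell (31.2% called). The pair with the smallest adjusted p were SSR1, a subunit of the translocon-associated complex (-0.45, adjusted p of 0.000222), and SERP1, a stress-associated protein of the translocon (-0.39, adjusted p of 0.00031). The others, named after their values were seen, were SSR4 (-0.20, adjusted p of 0.0355), the signal peptidase subunit SPCS2 (0.27, adjusted p of 0.00909) and the translocon subunit SEC61G (0.28, adjusted p of 0.0298). SSR4 lost its call in 8 of the 15 alternative settings, with quantile normalization (adjusted p of 0.102) and without any 1 library other than shZDHHC20 replicate 2 (0.107 to 0.175) among them. SEC61G lost its call without any 1 shControl replicate or shZDHHC20 replicate 3 (0.0588 to 0.14), and SPCS2 without shControl replicate 1 or 3 (0.0578 and 0.0695). Of 7 ER membrane factors, proteases and WFS1 2 fell (28.6%), WFS1, a membrane protein of the ER (-0.38, adjusted p of 0.00247), and CREB3L2, a membrane-bound transcription factor (-0.33, adjusted p of 0.00685; without shControl replicate 1, 0.0507).

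Counts of some members may hold reads of other genes, since the use of strand in counting is not given in the sources used here. In GENCODE 29 opposite-strand genes overlap exons of EIF2AK1, EIF2AK2, EIF2AK3, ATF5, DDIT3, CEBPB, DDIT4, VLDLR, ALDH1L2, HYOU1, CALR, CANX, PDIA6, DNAJB9 and EDEM1, in DDIT4 over 847 and in PDIA6 over 1033 bases. Pseudogenes carry the names of ATF4, ASNS, PSAT1 and the silenced ZDHHC20, with 4 each, and of PSPH and XBP1, with 1 each.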

How the data were processed

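RNA-seq of PANC-1 cells (3 shControl, 3 shZDHHC20 libraries) was read from the authors' deposited table, which holds a signal value for each gene in each library. Its name says FPKM, but 100% of values are whole multiples of the library's smallest value above 0 (tolerance 0.1), as counts divided by 1 factor are. Per the labels the build was hg19, and the aligner, counter and annotation are not given in the sources used here. The columns, named siZDHHC20 and NC, were assigned by group and number. Depths, known only relative to each other, were 93.06% to 103.5% of their mean, so no counting intervals are given.

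Values were taken as log2(value + 0.1). Genes averaging at least 1 were fitted with limma 3.58.1 in R 4.3.3 (lmFit, then eBayes with a mean-variance trend), two-sided, with Benjamini-Hochberg adjustment over 22189 genes, as had been designed for FPKM. The exact permutation test of 3 against 3 cannot go below 0.1 and was not used. Names came from a reference table (27175 of 27394 identifiers) and GENCODE 29, exon lengths from GENCODE 29, and promoters from RefSeq, read with Python 3.11.15. Figures used matplotlib 3.10.9. Scripts were tested on simulated data.

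All members are named. From each further list the 2 genes with the smallest adjusted p under 0.05 are named. The members and lists were chosen with earlier results of these data known. Alternatives changed the pseudocount (1, 0.01), the filter (none, or at least 5), the scaling (median ratio, quantile), the variance model (no trend, robust moderation) or the libraries used, or added the replicate number as a block. Those for genes of the further lists were added after the data were seen.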

Additional observations from a re-analysis of the deposited data

How the results depend on the processing

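No log2 fold change of a called member changed sign under the 15 alternatives, and counts moved as follows. Of the genes tested 2541 passed as reported, 351 without a mean-variance trend, and 1233 to 4454 with 1 library left out. Of the members 14 passed as reported, 1 without the trend, and 6 to 23 with 1 library left out. In the ATF4 arm 0 were higher and 1 lower without the trend, and 0 to 4 were higher and 5 to 10 lower with 1 library left out. In the XBP1/ATF6 arm 0 were higher and 0 lower without the trend. In that arm 2 were higher, in place of 1, with a mean of at least 5, with median-ratio scaling, with quantile normalization and with robust moderation, and 0 were lower with quantile normalization and 2 with robust moderation. With 1 library left out 0 to 4 of that arm were higher and 0 to 2 lower. The highest counts came without shZDHHC20 replicate 2, the library that stood apart. Same-numbered samples did not deviate together (correlations of -0.0948, -0.156 and -0.0771 over 10908 genes). The deviations were taken from group means of only 3 libraries, so these values cannot decide whether the numbers pair the samples. With a replicate block 1942 genes and 9 members passed, 1 ATF4 arm member was higher and 0 XBP1/ATF6 arm members were lower. The cause of these moves was not tested, except that fewer libraries enter a fit with 1 left out. Count tests, planned if counts could be used, were not run. VLDLR, ASNS and CTH, the members with the lowest levels, had intervals among the widest. The widest was that of CBS (-0.82 to 0.14), which had a higher level. The part of depth in these widths was not tested.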

Other observations

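In the whole RefSeq table of promoter windows 44 genes (0.161%) held ERSE or ERSE-II, and 36 of these were not members. Of the 36, 25 had a mean of at least 1, and 5 of these passed the threshold (20%), and the 25 had log2 fold changes with a median of 0.03. The 5 were named after their values were seen. FICD, an enzyme of the ER that attaches AMP to BiP, was higher by 0.53 on the log2 scale (limma adjusted p = 0.0205), CNKSR1 by 0.43 (adjusted p of 0.00835) and PLS3 by 0.22 (adjusted p of 0.0337). SERP1 fell by 0.39 (limma adjusted p = 0.00031) and NAV2 fell by 0.33 (adjusted p of 0.00746). These genes were found by letters alone. Their share is read beside the 11.5% of all genes tested and the 21.7% of genes averaging at least 100 that passed.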
